A study of Mus musculus with 6 samples.

Results

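The genes described here are 6 caspases (Casp1, Casp2, Casp4, Casp6, Casp8 and Casp9) and 2 of their direct regulators, Apaf1 and Xiap. They were chosen by name, as 8 of the 54532 genes in the count table, and all 8 had enough reads to be tested. RNA sequencing covered 6 cultures of CD4+ T cells from the spleens of male C57BL/6 mice aged 6 to 8 weeks. The cells were activated with anti-CD3 and anti-CD28 in the presence of IL-2, IL-12 and anti-IL-4 (Th1 conditions) for 72 h. In 3 cultures the medium held vehicle (0.1% DMSO), and in 3 it held 500 nM ALX-5407, which blocks GlyT1, a glycine transporter encoded by Slc6a9. The labels call the 3 samples of a group biological replicates without saying which animals they came from, so p-values measure the spread between these cultures. The labels give 72 h under Th1 conditions with ALX-5407 treatment, without a separate time for the drug. The RNA sequencing methods of the study give a shorter exposure. A figure legend of the study describes treatment in the medium and Th1 culture for the full time.

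Caspases are cysteine proteases that cut their substrates after aspartate and are made as inactive precursors. In the death receptor route, FADD recruits caspase-8 to receptors such as Fas. In the mitochondrial route, cytochrome c released from mitochondria binds APAF1, and this complex, the apoptosome, activates caspase-9. XIAP binds and inhibits some active caspases, caspase-9 among them, but not all. Caspase-1 and caspase-4 (also called caspase-11 in mice) belong to the inflammatory branch, which cuts gasdermin D and, for caspase-1, interleukin precursors. In activated T cells these routes limit how long an expanded population lives. Counts of mRNA measure transcripts, and neither the amount of precursor protein nor its cleavage.

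Levels are given in CPM, the counts of a gene per 1000000 counts of its library after TMM scaling. Library totals lay between 30801753 and 36727788 counts. A gene was called higher or lower at an adjusted p-value under 0.05 in the quasi-likelihood test of edgeR, adjusted by the Benjamini-Hochberg method across 15938 tested genes, and a DEG also had an absolute log2 fold change over 1. Slc6a9 itself went from 6.18 ± 1.25 to 15.8 ± 1.14 CPM (SD, n = 3 each). The 11 T cell markers examined summed to 3671 to 3914 CPM in Th1 cultures and to 3539 to 3571 CPM with ALX-5407. Single T cell markers went both ways, with log2 fold changes from -0.68 to 0.52. Of 14 myeloid markers, 10 had at most 15 counts in every culture and S100a8, S100a9 and Siglech were at 0. Ly6g alone stood at 72.1 ± 2.81 CPM in vehicle cultures and at 27.0 ± 4.04 CPM in treated ones (SD, n = 3 each). Without it, the myeloid markers summed to 3.73 to 4.48 and 3.43 to 4.88 CPM, which overlapped. The 6 B cell markers summed to 7.99 to 9.18 CPM in Th1 cultures and 12.5 to 15.01 CPM with ALX-5407, and the 6 markers of CD8 T and NK cells to 13.4 to 13.7 and 8.04 to 10.5 CPM. The groups did not overlap in these sums, with B cell markers higher and the others lower in treated cultures. The part of these cells in the results below was not tested. In bulk RNA, fewer cells of a type and less RNA per cell cannot be told apart.

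Of the 8 genes, Casp6, Casp8, Casp9 and Xiap were higher and Casp4 was lower in ALX-5407-treated Th1 cells, while Casp2, Apaf1 and Casp1 did not pass the test. Among all genes tested, 47.7% were called, 24.5% higher and 23.2% lower, so that 5 calls among 8 genes say little about them as a group. Their median log2 fold change was 0.17, against 0.0053 over all genes tested. None of the 8 genes was a DEG, where 10.0% of all genes were. That count was 0 in edgeR, DESeq2 and limma-voom, and also at an unadjusted p under 0.05, since the largest absolute log2 fold change was 0.61. The CPM values of both groups did not overlap for 5 of the 8 genes, against 55.5% of all genes tested.

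**Figure D1:**
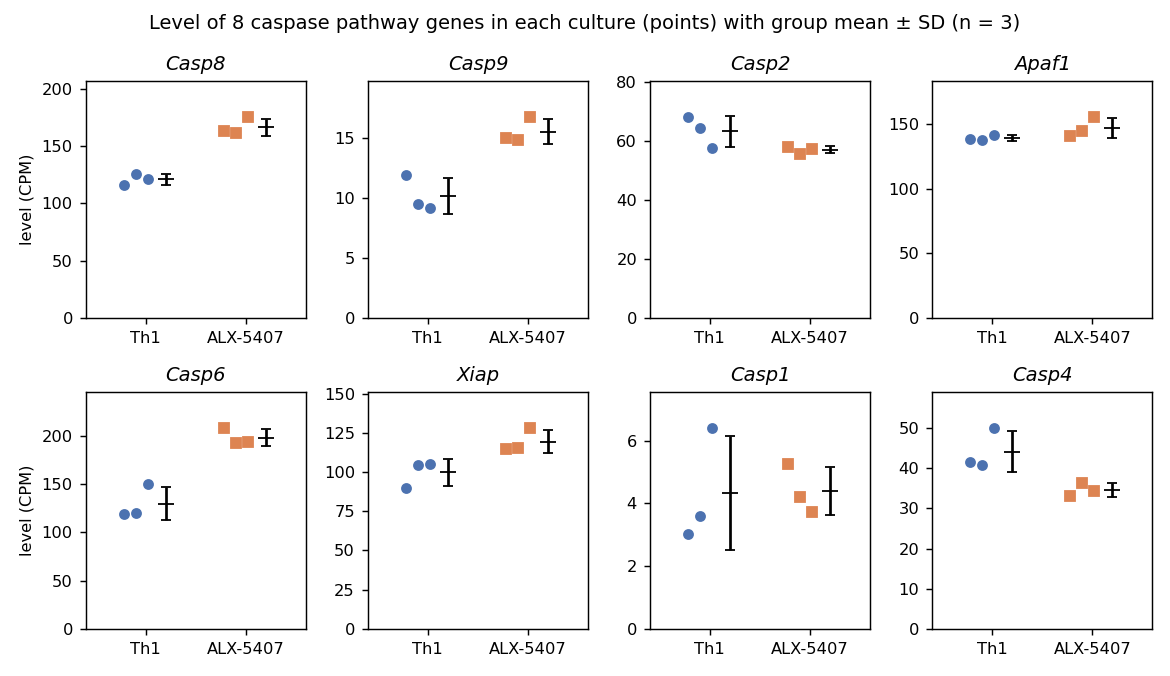
Level (CPM, linear axes from 0) of each gene in each of the 6 cultures, with circles for Th1 cultures with vehicle, squares for cultures with ALX-5407 and bars for the mean ± SD (n = 3). The squares lie above all circles for Casp8, Casp9, Casp6 and Xiap and below them for Casp4, while they overlap for Casp2, Apaf1 and Casp1.

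Windows around the annotated start are printed for the 3 caspases that rose and for Casp4, the caspase that fell. Each window runs from 250 bases before to 50 bases after a start, read from RefSeq on GRCm38.p6 and written 5′ to 3′ on the + strand of the gene. Capitals mark GC boxes (GGGCGG on either strand), a motif bound by Sp1-type factors. Casp8 lies at chr1:58802252-58802551, Casp6 at chr3:129901165-129901464, Casp9 at chr4:141793362-141793661 and Casp4 at chr9:5308599-5308898.
Casp8: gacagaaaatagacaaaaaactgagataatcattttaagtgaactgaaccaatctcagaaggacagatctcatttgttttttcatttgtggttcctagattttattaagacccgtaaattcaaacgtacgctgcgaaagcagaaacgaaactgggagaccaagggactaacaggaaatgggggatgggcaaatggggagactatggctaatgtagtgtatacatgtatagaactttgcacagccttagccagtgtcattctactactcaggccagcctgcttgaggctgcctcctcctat
Casp6: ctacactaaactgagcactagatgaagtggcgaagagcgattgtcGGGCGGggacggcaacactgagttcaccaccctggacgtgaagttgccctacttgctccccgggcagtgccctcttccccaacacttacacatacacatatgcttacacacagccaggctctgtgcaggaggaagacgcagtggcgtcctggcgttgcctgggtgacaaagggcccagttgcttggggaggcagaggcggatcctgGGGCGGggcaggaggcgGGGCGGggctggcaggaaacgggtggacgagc
Casp9: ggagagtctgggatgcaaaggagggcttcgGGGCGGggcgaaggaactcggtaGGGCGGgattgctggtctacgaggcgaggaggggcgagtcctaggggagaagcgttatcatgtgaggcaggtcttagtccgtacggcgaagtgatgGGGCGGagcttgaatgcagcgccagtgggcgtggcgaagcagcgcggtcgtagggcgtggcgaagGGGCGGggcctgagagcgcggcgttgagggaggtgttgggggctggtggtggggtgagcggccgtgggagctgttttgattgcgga
Casp4: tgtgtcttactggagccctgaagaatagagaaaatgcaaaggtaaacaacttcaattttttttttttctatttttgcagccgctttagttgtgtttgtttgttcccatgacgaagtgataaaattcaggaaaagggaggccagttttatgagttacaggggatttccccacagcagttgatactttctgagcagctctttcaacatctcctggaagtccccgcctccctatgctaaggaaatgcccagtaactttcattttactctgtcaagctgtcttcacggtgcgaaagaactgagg

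The windows of Casp6 and Casp9 held 3 and 4 GC boxes, 62.0% and 66.0% G and C, and 16 and 28 CpG dinucleotides. Those of Casp8 and Casp4 held no GC box, 42.0% G and C each, and 5 CpG each. Over the 32851 windows of the table, 35.7% held a GC box, the median G and C content was 52.7% and the median number of CpG was 7. Of the 8 genes, Casp2, Apaf1 and Xiap also had a GC box in at least 1 window, and Casp1 had none. Casp2 held 2 and Apaf1 3 in their window. The Casp8 window and the 3 windows of Xiap lie inside the gene spans given below, at starts downstream of the first annotated one of each gene. The letters TTCNNNGAA (a STAT-type site, in 8.30% of all windows), TGACGTCA (1.79%) and TTTGGCGC or TTTCGCGC (an E2F-type site, 0.813%) occurred on neither strand in any window of the 8 genes. TATAAA (13.6% of all windows, either strand) occurred in 1 of the 3 windows of Xiap. There it lay on the opposite strand at the upstream edge of the window, far from the start.

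Casp8 (ENSMUSG00000026029, chromosome 1, 58795374 to 58847503 on the + strand of GRCm38) encodes the initiator of the death receptor route. It was at 116, 126 and 121 CPM in the 3 Th1 cultures and at 163, 162 and 175 CPM in the 3 treated cultures. All 3 treated cultures were above all 3 untreated ones, and the replicates lay close together. On the log2 scale this was 0.46 (SE, the standard error, 0.0702, edgeR adjusted p = 4.97e-05), an increase of 37.7%. Gm37760, an unclassified gene model, lies within the span of Casp8 on the same strand but shares no exon base with it. The small RNA genes Gm25108, within Casp2, and Gm25390, within Apaf1 on the opposite strand, also share no exon base with them.

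Casp9 (ENSMUSG00000028914, chromosome 4, 141793612 to 141815976, + strand) encodes the initiator of the mitochondrial route. Its level was 11.9, 9.50 and 9.16 CPM without and 15.01, 14.9 and 16.7 CPM with ALX-5407. The groups did not overlap, and the first Th1 culture was the highest of its group. Its log2 fold change came to 0.61 (SE 0.125, edgeR adjusted p = 0.0008). Exons of the pancreatic protease genes Cela2a and Ctrc on the opposite strand each share 94 bases (1.81%) of the Casp9 exons, and both had 0 counts in every culture.

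Casp2 (ENSMUSG00000029863, chromosome 6, 42264985 to 42282508, + strand) encodes an initiator that is activated by the PIDDosome, a complex of PIDD1 and CRADD. Its values of 68.1, 64.3 and 57.5 CPM without and 58.1, 55.7 and 57.2 CPM with ALX-5407 overlapped only through the third Th1 culture. The log2 fold change was -0.15 (95% interval -0.32 to 0.01, edgeR adjusted p = 0.126). Without the third Th1 culture it was -0.23 (edgeR adjusted p = 0.0134), and over all alternatives the adjusted p ran from 0.0134 to 0.362.

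Apaf1 (ENSMUSG00000019979, chromosome 10, 90989311 to 91082770, - strand) encodes the scaffold of the apoptosome. It was at 138, 138 and 142 CPM in Th1 cultures and at 141, 144 and 155 CPM with ALX-5407. The first treated culture lay below the highest untreated one, and the third treated culture was the highest of all. The log2 fold change of 0.08 had a 95% interval of -0.07 to 0.22 (edgeR adjusted p = 0.39), so that the interval did not reach the 0.46 measured for Casp8.

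Casp6 (ENSMUSG00000027997, chromosome 3, 129901425 to 129914103, + strand) encodes an executioner caspase known for cutting nuclear lamins. Its level was 119, 121 and 150 CPM in Th1 cultures and 208, 192 and 194 CPM with ALX-5407. The third Th1 culture stood above the others of its group but was below every treated culture. Its log2 fold change of 0.61 (SE 0.0872, edgeR adjusted p = 2.72e-05) was an increase of 52.5%, next to 52.2% for Casp9.

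Xiap (ENSMUSG00000025860, X chromosome, 42059679 to 42109656, + strand) encodes an inhibitor of some caspases. It was at 90.0, 104 and 105 CPM without and at 115, 115 and 128 CPM with ALX-5407. The groups did not overlap, with the first Th1 culture lowest and the third treated culture highest. The estimate was 0.26 on the log2 scale (SE 0.0797, edgeR adjusted p = 0.0132). Without the first Th1 culture it was 0.18 (edgeR adjusted p = 0.0925) and without the third treated culture 0.21 (edgeR adjusted p = 0.0645), within a range of adjusted p from 0.00412 to 0.0925 over all alternatives.

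The inflammatory caspases Casp1 and Casp4 are neighbours on the + strand of chromosome 9, from 5298517 to 5307265 and from 5308828 to 5336783. Casp4 (ENSMUSG00000033538) encodes the sensor of cytosolic lipopolysaccharide, and its values of 41.6, 40.8 and 50.01 CPM without and 33.0, 36.3 and 34.3 CPM with ALX-5407 did not overlap. The change was -0.35 on the log2 scale (SE 0.0917, edgeR adjusted p = 0.00457), so that Casp4 fell by 21.7%. Casp1 (ENSMUSG00000025888) encodes the protease of the canonical inflammasomes. It was at 3.01, 3.60 and 6.40 CPM in Th1 cultures and at 5.24, 4.21 and 3.74 CPM with ALX-5407, from 98 to 197 counts a culture. Here the third Th1 culture was the highest of all 6 and the first the lowest, and the treated cultures lay between them. The log2 fold change of 0.021 had a 95% interval of -0.49 to 0.53 (edgeR adjusted p = 0.955), which does not exclude a change as large as that of Casp4. The sign of this value changed with the scaling and with the culture left out. Casp12, the next gene of the cluster, had at most 6 counts in any culture, and Casp14, a caspase of the skin, had 0.

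**Figure D2:**
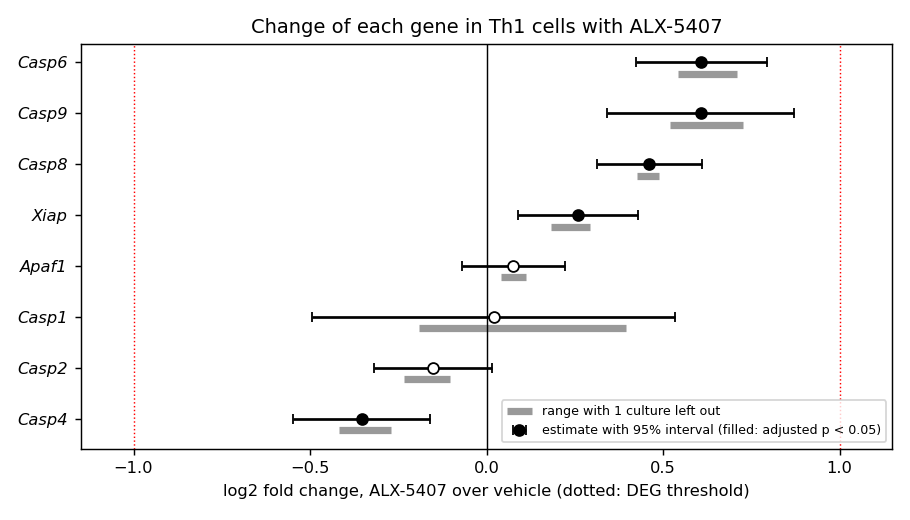
Log2 fold change (ALX-5407 over vehicle) of the 8 genes with 95% intervals, where filled points have an adjusted p under 0.05, grey bars give the range with 1 of the 6 cultures left out and dotted lines mark the DEG threshold at 1 and -1. Casp6, Casp9, Casp8 and Xiap lie above 0 and Casp4 below it, all inside the dotted lines, and Casp1 has the widest interval.

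The spread between replicates was unequal among the 8 genes. In Th1 cultures the coefficient of variation of CPM was 1.57% for Apaf1 and 3.82% for Casp8, but 13.4% for Casp6, 14.7% for Casp9 and 41.7% for Casp1. Counting error alone, from the mean number of reads, would give 1.51% for Apaf1, 1.56% for Casp6, 5.57% for Casp9 and 8.57% for Casp1. With ALX-5407, Casp1 varied by 17.5% and the other 7 genes by 2.08% to 6.76%.

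To compare levels between genes, CPM was divided by the gene length in the file (the merged exons of all transcripts, in kilobases), which gives FPKM. In Th1 cultures, Casp8 had the highest level, 41.8 ± 1.60 FPKM, followed by Casp6 with 23.3 ± 3.11, Apaf1 with 15.4 ± 0.242 and Casp4 with 11.9 ± 1.38 FPKM (SD, n = 3 each). The order went on with Xiap with 10.5 ± 0.896, Casp2 with 8.97 ± 0.757, Casp1 with 2.90 ± 1.21 and Casp9 with 1.96 ± 0.289 FPKM (SD, n = 3 each). Casp4 and Xiap, Xiap and Casp2, and Casp1 and Casp9 overlapped as neighbours in this order, and the other neighbours did not. With ALX-5407 the first 3 places were the same, at 57.6 ± 2.60 FPKM for Casp8, 35.5 ± 1.58 for Casp6 and 16.2 ± 0.828 for Apaf1 (SD, n = 3 each). Xiap, at 12.6 ± 0.797 FPKM, was then above Casp4, at 9.31 ± 0.460 FPKM, without overlap, and Casp9 and Casp1 overlapped at 2.99 ± 0.202 and 2.94 ± 0.513 FPKM (SD, n = 3 each). Gene length counts all isoforms, so a change of isoform would shift these levels. The order between genes depends on this length as well. In CPM, before the division, Apaf1 (139) stood above Casp6 (130) and Casp8 (121) in Th1 cultures.

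**Figure D3:**
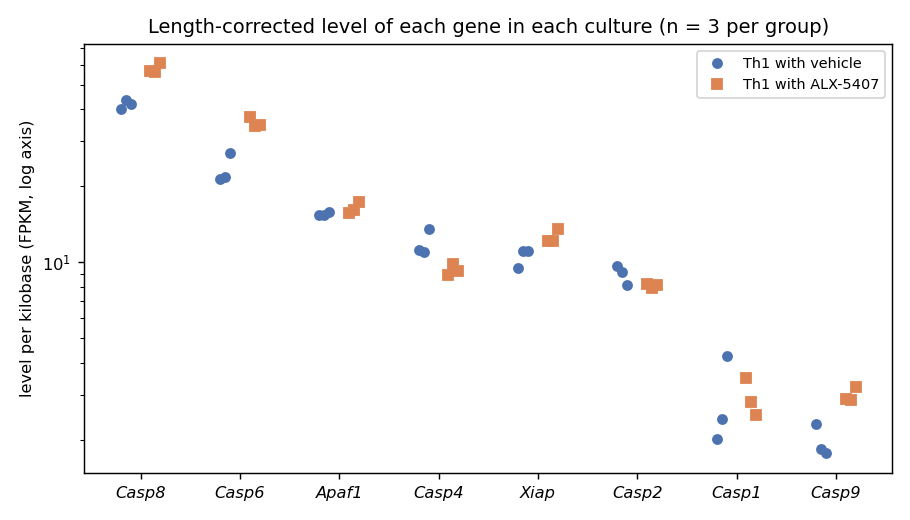
Level per kilobase (FPKM, log axis) of the 8 genes in each culture, ordered by their mean in Th1 cultures, with circles for vehicle and squares for ALX-5407 (n = 3 each). Casp8 and Casp6 are the 2 highest in both groups and Casp1 and Casp9 the 2 lowest, and Xiap and Casp4 exchange places.

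The summed FPKM of the 6 caspases and 7 ratios of FPKM within a culture, 6 of them with a caspase, were also compared. They are 8 measures chosen after the values were seen, and with 3 cultures a group the exact two-sided permutation test cannot give a p under 0.1. The 6 caspases summed to 90.8 ± 5.02 FPKM in Th1 cells and 116 ± 2.42 FPKM with ALX-5407 (SD, n = 3 each), without overlap (p = 0.1, exact permutation test, 0.133 with Benjamini-Hochberg adjustment over the 8 measures, as for every p of 0.1 here). Of this sum Casp8 held 46.1% and 49.5%, Casp6 25.5% and 30.5%, and Casp4 13.1% and 8.01%. Casp8 stood at 2.94 ± 0.128 times Cflar, which encodes the inhibitor c-FLIP of the death receptor complex, and at 3.65 ± 0.140 times with ALX-5407 (SD, n = 3 each, p = 0.1, exact permutation test). The size of this ratio depends on the gene lengths. In CPM, Cflar was above Casp8, at 180 against 121 in Th1 cultures and 200 against 167 with ALX-5407. The ratio of Casp8 to its adaptor Fadd was 37.4 ± 7.90 without and 27.1 ± 3.17 with ALX-5407 (SD, n = 3 each, p = 0.1, exact permutation test). Casp9 went from 0.127 ± 0.0200 to 0.184 ± 0.00458 of Apaf1 (SD, n = 3 each, p = 0.1, exact permutation test). None of these ratios passed a test, and for Casp8 to Fadd the lowest vehicle culture (30.001) and the highest treated culture (29.7) lay close together. The ratio of Casp9 to Xiap overlapped between the groups, at 0.189 ± 0.0456 and 0.237 ± 0.00171 (SD, n = 3 each, p = 0.4, exact permutation test), and so did that of Casp1 to Casp4 (p = 0.3, exact permutation test). The ratio of Casp6 to Xiap was 2.21 ± 0.236 and 2.82 ± 0.254 (SD, n = 3 each, p = 0.1, exact permutation test). The ratio of Birc2 to Xiap was 4.17 ± 0.315 and 1.53 ± 0.125 (SD, n = 3 each, p = 0.1, exact permutation test), a log2 difference of -1.45.

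The partners of these genes were taken from 6 lists of pathway genes. The counts of called genes below stand beside 24.5% called higher and 23.2% called lower among all genes tested. No list was tested as a set. In the list of the apoptosome and mitochondrial release, 3 of 10 tested genes were higher and the others not called, with a median log2 fold change of 0.071. Aifm1 and Hspa9, which encode mitochondrial proteins, rose by 0.26 and 0.48, and Aven, an APAF1-binding inhibitor, by 0.28 on the log2 scale. Cytochrome c (Cycs) had a log2 fold change of -0.042 (95% interval -0.22 to 0.14), its release channels Bax and Bak1 had -0.0018 and 0.063, and Diablo, the XIAP antagonist of mitochondria, had 0.062 (95% interval -0.29 to 0.42). In this list 1 gene was called, instead of 3, without the first Th1 culture or without the third treated culture.

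In the list of the death receptor complex, 7 of 15 tested genes were higher and 2 lower, with a median log2 fold change of 0.15. Fadd, the adaptor of caspase-8, rose by 0.89 on the log2 scale, with 4.51 ± 1.05 CPM in vehicle cultures and 8.37 ± 0.933 CPM in treated ones (SD, n = 3 each, edgeR adjusted p = 0.000492). The TRAIL receptor Tnfrsf10b rose by 0.65 and Tnf by 0.61, whereas Fas had a log2 fold change of -0.067 (95% interval -0.25 to 0.11) and Cflar 0.15 (95% interval 0.00023 to 0.30, edgeR adjusted p = 0.0929). Of the ligands, Tnf thus rose, while the other two fell. Fasl was at 16.9, 17.1 and 22.4 CPM without and at 6.17, 6.86 and 6.10 CPM with ALX-5407, which gave -1.56 on the log2 scale (SE 0.134, edgeR adjusted p = 1.42e-07). The value for Tnfsf10, which encodes TRAIL, was -0.58 (edgeR adjusted p = 0.000724). Casp8 and Fadd were thus higher while Fasl, the ligand of Fas, was lower.

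The PIDDosome list held Pidd1 and Cradd together with Trp53 and Mdm2, which are not parts of the complex. All but Mdm2 were called higher, 3 of 4 genes, against 24.5% of all genes tested. Pidd1 had a log2 fold change of 0.51, Cradd 0.78 and Trp53 0.64, with adjusted p-values of 0.00161, 0.000696 and 6.93e-06 from edgeR. Casp2, the protease of the PIDDosome, was not called in the same test.

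In the list of the IAP family and its antagonists, 3 of 11 tested genes were higher and 2 lower, with a median log2 fold change of 0.10. Birc2, which encodes the ubiquitin ligase cIAP1, was at 188, 193 and 222 CPM in Th1 cultures and at 91.8, 84.9 and 86.8 CPM with ALX-5407. Every treated culture was far below every untreated one, and the log2 fold change was -1.19 (SE 0.0787, edgeR adjusted p = 8.06e-09). Its neighbour Birc3 (cIAP2) was at 201 ± 10.9 CPM, and at 180 ± 6.02 CPM with ALX-5407 (SD, n = 3 each), or -0.16 on the log2 scale (edgeR adjusted p = 0.0744). Traf1, which binds both ligases, had a log2 fold change of -0.36. Xaf1, a XIAP-associated factor, rose by 1.19 from 2.16 ± 0.526 CPM, and Birc5 (survivin) by 0.31 on the log2 scale. Naip5 had a log2 fold change of 1.46 but at most 32 counts, and Naip genes are close copies, so that its counts are uncertain. Over all alternatives the number of called genes in this list ran from 3 to 6, against 5 in the main test. It was 3 without the first Th1 culture or the first treated culture.

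The inflammasome list, with the partners of Casp1 and Casp4, had 3 of 17 tested genes higher and 4 lower, and a median log2 fold change of -0.0031. The DNA sensor Aim2 fell from 26.6 ± 3.15 to 16.0 ± 0.720 CPM (SD, n = 3 each), or -0.74 on the log2 scale (edgeR adjusted p = 2.51e-05). Nlrc3 had -0.32. Il1a had -2.01 (95% interval -3.01 to -1.01, edgeR adjusted p = 0.00219), from 1.52 ± 0.442 to 0.377 ± 0.235 CPM (SD, n = 3 each). Il1a had at most 62 counts in any culture, so that its value rests on few reads. Nlrx1, Gbp2 and Gbp5 rose by 0.38, 0.20 and 0.18 (edgeR adjusted p = 0.0170, 0.0255 and 0.0429). The adaptor Pycard (0.025, 95% interval -0.29 to 0.34) and the pore-forming substrate Gsdmd (-0.14, 95% interval -0.31 to 0.04) did not pass the test, and Nlrp3, Nlrc4, Nlrp1a, Nlrp1b and Mefv had at most 41 counts in any culture. The count of 7 called genes held with DESeq2, limma-voom and the replicate block. It was 4 to 6 under every other alternative, with 4 without the second Th1 culture or the first treated culture. Among 20 caspase substrates, 6 were higher and 1 lower, with a median of 0.15. Lmnb1, Prkdc and Bid rose by 0.48, 0.59 and 0.58, and Acin1, a chromatin condensation factor, had a log2 fold change of -0.61.

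**Figure D4:**
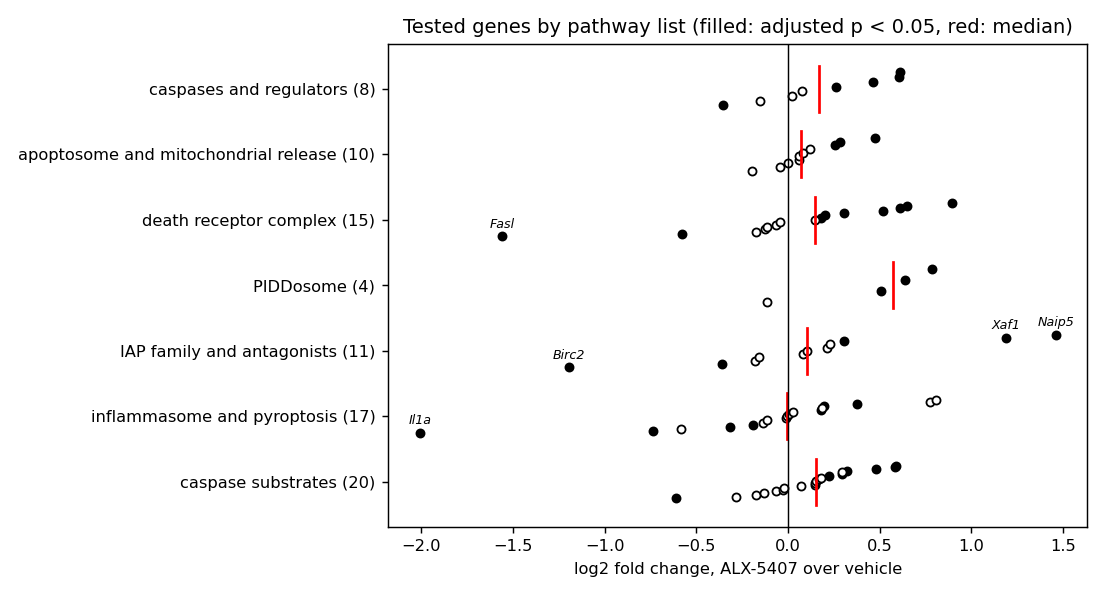
Log2 fold change (ALX-5407 over vehicle) of the 8 genes and of the tested genes of 6 pathway lists, 1 point a gene, with filled points at an adjusted p under 0.05 and red lines at the median of each list. The medians run from -0.0031 for the inflammasome list to 0.57 for the PIDDosome list, and the genes past 1 or -1 are Fasl, Birc2, Xaf1, Naip5 and Il1a.

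Among 12117 tested genes with a mean of 50 counts or more, the gene whose log2 CPM followed Casp8 most closely over the 6 cultures was Socs2, with a log2 fold change of 0.86. For Casp6 it was Sgk3, for Casp9 Ppp6r1, for Xiap Tdrkh and for Casp4 Gm2999, with Pearson's r from 0.996 to 0.999. For Casp2 it was Yipf3 (r = 0.996), for Apaf1 Secisbp2l (r = 0.992) and for Casp1 Mrpl23 (r = 0.989). Both groups enter each r, so that it includes the difference between them, and 1354 genes had an r over 0.95 with Casp8, 623 with Casp6, 27 with Apaf1 and 13 with Casp1. Each match is also the highest r among 12117 genes over only 6 cultures, so that a high value does not show a link.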

How the data were processed

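Gene counts of 6 libraries (3 Th1 with vehicle, 3 with ALX-5407) were analysed. The authors deposited raw counts of reads per gene, without normalization or pooling, on mm10 (GRCm38). The processing notes of the submitters name fastp, HISAT2 2.0.5 and featureCounts 1.5.0-p3; the use of strand and of reads that map to several places is not given in the sources used here. Sample labels gave the groups; they name poly-T bead capture, and the study methods ribosomal RNA depletion.

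Differential expression used edgeR 4.0.16 (R 4.3.3) after filterByExpr (minimum count 10, minimum total 15), TMM scaling (factors 0.965 to 1.03) and the quasi-likelihood test, without covariates. Intervals of log2 fold changes use the standard error and the t quantile of each gene's degrees of freedom. CPM and FPKM were computed with TMM library sizes. DESeq2 1.42.0, limma-voom (limma 3.58.1), other scalings and filters, protein-coding genes alone, a replicate block and each culture left out were alternatives. The procedures were tested on simulated counts. Replicates differed by more than counting noise (chi-square over degrees of freedom 5.65 to 22.4).

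The 8 genes and the lists were chosen with earlier results of these data known. Named genes are the 8 genes, per list up to 3 calls a direction with the smallest p and the DEGs, overlapping genes, Slc6a9 and the most similar gene. Genes in lists given without a call, and the ratios, were chosen after their values were seen. Results for 2 listed genes are not reported here. Annotation came from GENCODE M21, in which all 8 genes have the same start and end as in the file. Figures were drawn with matplotlib 3.10.9.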

Additional observations from a re-analysis of the deposited data

How the results depend on the processing

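The calls of Casp4, Casp6, Casp8 and Casp9 kept their direction and their side of the threshold under all 15 alternatives, and the count of called genes among the 8 ran from 4 to 6. Casp2, not called in the main test, was called lower with upper-quartile scaling (-0.21) and with protein-coding genes alone (-0.20), as well as without the third Th1 culture; with 1 culture left out its log2 fold change ran from -0.23 to -0.10. Xiap ran from 0.18 to 0.29 with 1 culture left out and was not called in 2 of those 6 cases. Casp1 changed sign with upper-quartile scaling (-0.033) and protein-coding genes alone (-0.026), and ran from -0.19 to 0.39 with 1 culture left out. The cause was not tested. With 1 culture left out, the number of called genes ran from 1 to 3 in the apoptosome list, from 3 to 5 in the IAP list and from 4 to 6 in the inflammasome list. Deviations of samples with the same replicate number did not go together (correlations -0.0084 to 0.0635), so the numbers were not taken as pairs. With the replicate number as a block, 7904 genes were called in place of 7605, 5 of the 8 genes were called as before, and the log2 fold changes were 0.62 for Casp6, 0.46 for Casp8, 0.61 for Casp9, 0.26 for Xiap and -0.35 for Casp4. With library totals alone the median log2 fold change of all genes was 0.064, and with upper-quartile scaling it was -0.048. Casp1 had the lowest counts of the 8 genes, and in Th1 cultures counting error gave a coefficient of variation of 8.57% for it, against 41.7% observed.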
